A study of Mus musculus with 12 samples.

Results

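The genes described here carry out the activation and oxidation of fatty acids and the last step of ketone body formation. They are 35 of the 24062 gene symbols counted in every library, taken as a list of named genes whose rule uses no measured value, although earlier results of these data were known when the list was made. By where their products are known to act, 17 were grouped as mitochondrial, 11 as peroxisomal and 7 as acting in both organelles or outside them. All 35 passed the filter on low counts in each comparison below. RNA-seq libraries from 12 mice were used, 1 per mouse and 3 per group. In the first model, livers came from male FVB mice carrying LAP-tTA and TRE-MYC. In these mice the LAP promoter drives the transactivator tTA in hepatocytes and MYC is on (MYC-ON), so both diet groups express the transgene. The authors report lower MYC expression on the No-Trp diet than on the control diet, still above that of wild-type livers. In the second model, HCC53N cells, 1 line of mouse liver tumor cells lacking p53 and carrying mutant NRAS, grew as subcutaneous xenografts in female NOD SCID mice, which lack T and B cells but keep their own stroma and fat. The labels describe the xenograft cells as MYC-ON too, which was not settled here. In each model, 1 group was fed the control diet and the other the No-Trp diet, which lacks tryptophan (Trp), for 21 days in both groups. The labels do not give the ages of the mice at the end of the diets. The question was how Trp starvation changes tumor-bearing livers and xenografts, and here what happens to fatty acid oxidation genes in each organelle, diet and model.

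Fatty acids enter hepatocytes with the help of transport proteins, are bound in the cytosol and are activated to acyl-CoA. Long-chain acyl groups cross into mitochondria as carnitine esters and are shortened there by repeated dehydrogenation, hydration, oxidation and thiolysis, which feeds the respiratory chain and ketone body synthesis. Peroxisomes take up very-long-chain, branched and dicarboxylic acyl-CoAs through ABC transporters, shorten them with enzymes of their own and pass the products on as carnitine esters or free acids. In liver many genes of both pathways are known targets of the nuclear receptor PPARα, which binds direct repeats of the half-site AGGTCA spaced by 1 base.

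The upstream sequences of 4 of these genes are shown first, because they differ in whether that repeat can be read in them. RefSeq promoters (GRCm38.p6, 250 bases before to 50 bases after the start) matched 28 of the 35 genes. The motif AGGTCANAGGTCA was searched on both strands with at most 2 mismatches in its 12 fixed bases, and 4.4% of 27025 genes (3.86% of 32851 promoters of this length) hold such a match. Of the 28 genes, 3 did (10.7%): Fabp1 with 1 mismatch, and Etfa and Acox2 with 2 mismatches. Each sequence below is written 5′ to 3′ on the strand of the gene, without bases that GENCODE annotates as exon, and capitals mark the match, which lies on the opposite strand in both cases. Fabp1 and Etfa are shown for their matches, and Ehhadh and Pex11a because their transcripts differed most between diets among the 11 peroxisomal genes.
Fabp1 (chr6:71199629-71199826, plus strand): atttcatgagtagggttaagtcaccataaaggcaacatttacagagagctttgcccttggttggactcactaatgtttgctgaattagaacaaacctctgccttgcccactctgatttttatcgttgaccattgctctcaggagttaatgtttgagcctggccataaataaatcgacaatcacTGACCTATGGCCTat
Etfa (chr9:55512244-55512493, minus strand): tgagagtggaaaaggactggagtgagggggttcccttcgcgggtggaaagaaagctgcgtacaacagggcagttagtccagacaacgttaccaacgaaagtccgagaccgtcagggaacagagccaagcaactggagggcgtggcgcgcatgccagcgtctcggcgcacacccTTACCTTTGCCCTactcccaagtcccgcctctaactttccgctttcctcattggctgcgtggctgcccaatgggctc
Ehhadh (chr16:21787835-21788084, minus strand): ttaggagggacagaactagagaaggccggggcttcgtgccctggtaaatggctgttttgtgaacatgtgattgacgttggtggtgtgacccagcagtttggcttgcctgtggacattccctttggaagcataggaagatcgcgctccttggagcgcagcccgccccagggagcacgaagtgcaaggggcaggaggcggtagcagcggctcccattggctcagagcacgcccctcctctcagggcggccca
Pex11a (chr7:79743184-79743381, minus strand): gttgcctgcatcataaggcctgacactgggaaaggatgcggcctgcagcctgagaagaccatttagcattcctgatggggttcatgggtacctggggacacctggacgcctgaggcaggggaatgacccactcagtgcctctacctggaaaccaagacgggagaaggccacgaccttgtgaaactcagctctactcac

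The Fabp1 match begins 67 bases before the RefSeq start and the Etfa match 77 bases before it. In the livers, Fabp1 and Etfa were among the genes with small diet differences (log2 0.34 and 0.59), while Ehhadh and Pex11a, with no match in these windows, had the largest (3.10 and 2.90). Acox2, the other gene with a match, which lies after the start, came next at 2.75. A match describes letters only, and its absence from a short window says nothing of binding elsewhere.

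The libraries held 14660963 to 26085349 reads on genes. Levels are given as CPM, that is reads scaled to library size with TMM factors over the 12 libraries, and values for single mice are listed in the order 101, 102, 103 (control diet) and 105, 107, 108 (No-Trp diet) for the livers, and 40, 41, 43 and 35, 36, 37 for the xenografts. Calls required 0.05 or less for the adjusted p of edgeR's quasi-likelihood test, over all genes tested, together with a log2 difference of 1 or more in either direction. With 3 mice against 3, exact permutation of 1 value (two-sided) can give no p below 0.1. Control mouse 102 stood apart from the other control livers in markers of hepatocytes, whose summed level over 10 genes was 52305 CPM against 17887 in mouse 101 and 14990 in mouse 103. Mouse 101 had 12.1% of its reads on the ribosomal precursor Rn45s. The xenografts held little hepatocyte RNA by these markers, at 820 to 2705 CPM in sum, with albumin (Alb) at 74.8 to 344 CPM, against 4522 to 88176 CPM in the livers.

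In the livers, all 35 genes had a positive log2 difference on the No-Trp diet, and 20 were called higher (57.1%, against 9.28% of the 14122 genes tested). No member was called lower, a direction that holds 7.27% of all genes tested, and none had a lower value with an unadjusted p under 0.05 in edgeR or a call by DESeq2, which called 22 higher. In 28 members every No-Trp liver lay above every control liver, against 23.6% of all genes. The median log2 difference was 0.96 over the 17 mitochondrial genes, 2.09 over the 11 peroxisomal genes and 1.38 over the 7 others, against −0.00 over all genes. Of the peroxisomal genes 9 were called, of the mitochondrial genes 7 and of the others 4. Scaled by library totals, the counts were 9, 2 and 3, and over all genes 732 were then called higher and 1532 lower, against 1311 and 1026 with TMM. In tissue RNA, more cells of a type and more RNA per cell cannot be told apart.

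How many members passed depended on single mice, as did the calls over all genes. Without control mouse 103 no member was called, although 24 had an unadjusted p under 0.05. Over all genes, 7 were then called higher and 1 lower, against 1311 and 1026 with all mice. The edgeR count was 2 without control mouse 101, 5 without No-Trp mouse 105, 9 without No-Trp mouse 107, 17 without No-Trp mouse 108 and 25 without control mouse 102. In the same order, 178, 298, 660, 1205 and 1959 genes were called higher over all genes tested. Over these 6 fits the mitochondrial median stayed between 0.78 and 1.15 and the peroxisomal median between 1.53 and 2.49, and of the 35 genes only Fabp1 changed sign, to −0.02 without mouse 107.

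**Figure D1:**
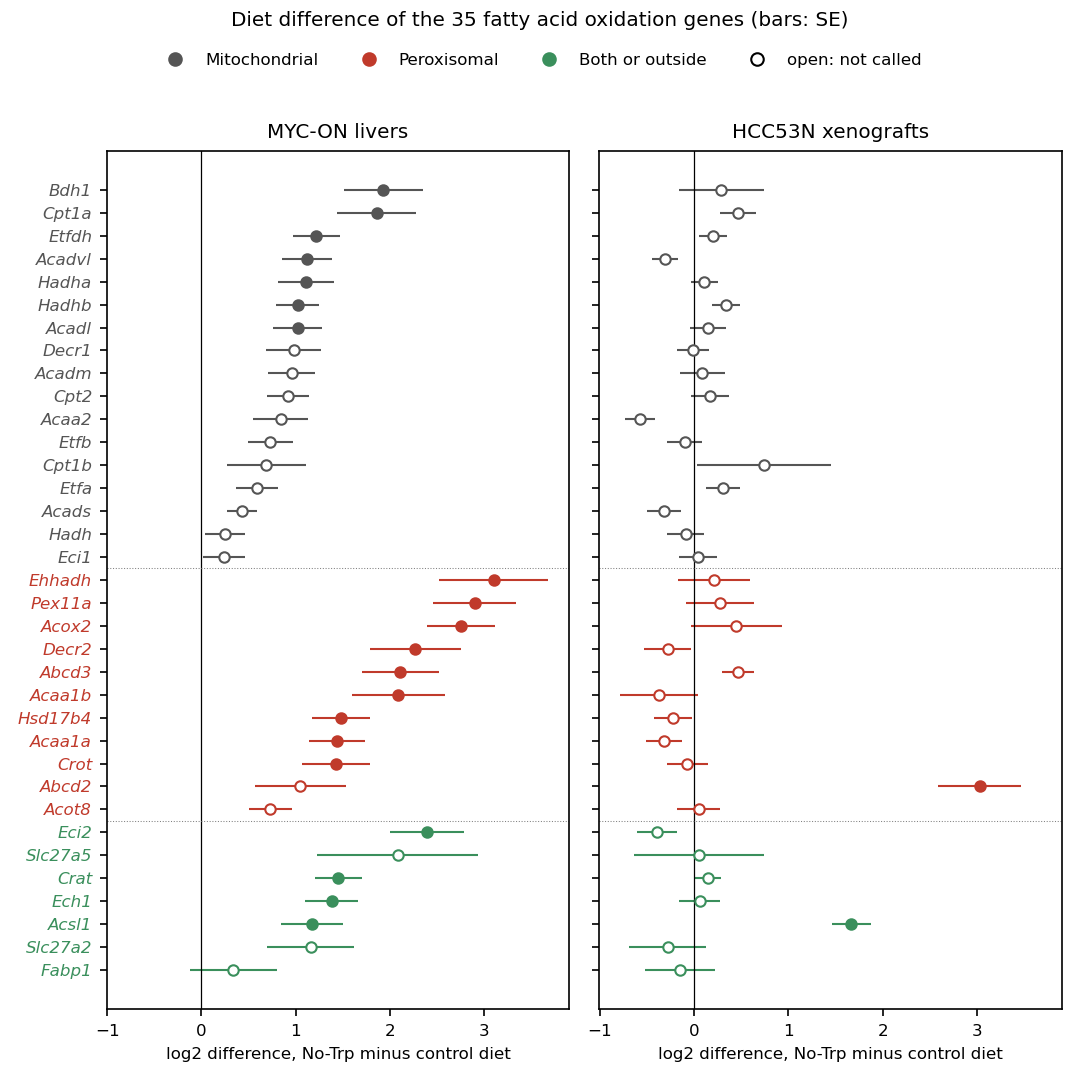
Log2 difference between the No-Trp and control diets (horizontal axis) for each of the 35 genes, with standard errors as bars, in MYC-ON livers (left) and HCC53N xenografts (right). Filled points were called, open points were not. All liver points lie right of 0, with Ehhadh farthest at 3.10, while in the xenografts only Abcd2 at 3.03 and Acsl1 at 1.67 are filled.

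The peroxisomal enzymes of β-oxidation proper were among the largest differences. Ehhadh (chromosome 16, 21761287 to 21787807) encodes the bifunctional hydratase and dehydrogenase that acts on straight-chain and dicarboxylic acyl-CoAs. It was at 27.4, 104 and 40.4 CPM in control livers and at 302, 708 and 435 CPM in No-Trp livers. The lowest No-Trp mouse lay well above control mouse 102, the highest of the controls, and the rise was 8.55-fold (log2 3.10, SE 0.58, edgeR adjusted p = 0.0201). Hsd17b4, its partner for branched chains and bile acid precursors, was at 158, 305 and 195 CPM and at 464, 766 and 582 CPM. The groups did not overlap and the rise was smaller, 2.79-fold (log2 1.48, SE 0.31, edgeR adjusted p = 0.0236). Per kilobase of exon, Ehhadh was at 0.198, 0.389 and 0.237 of the level of Hsd17b4 in control livers and at 0.743, 1.06 and 0.853 in No-Trp livers, with mouse 107 above 1.

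Acox2 (chromosome 14, 8225511 to 8259353), the oxidase for branched chains and bile acid intermediates, was at 77.5, 145 and 63.1 CPM in control livers and at 485, 760 and 653 CPM in No-Trp livers. Every No-Trp mouse was above every control mouse, and the log2 difference of 2.75 (SE 0.36, edgeR adjusted p = 0.0136) was called in 5 of 6 fits with a mouse left out. Decr2, a reductase for unsaturated chains, was at 27.1, 71.7 and 23.4 CPM and at 136, 264 and 179 CPM, with log2 2.27 (SE 0.48, edgeR adjusted p = 0.0244). The groups again did not overlap.

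The thiolases Acaa1a and Acaa1b, which complete each round, are close copies on chromosome 9 (119339676 to 119350299 and 119148023 to 119157093). Their transcripts were identical at 1392 of 1450 aligned bases (96.0%), so the counting could have split reads between them, and each shares exonic bases with a gene on the other strand (Myd88 and Dlec1). Acaa1a was at 97.2, 167 and 94.4 CPM on the control diet and at 233, 392 and 337 CPM on the No-Trp diet (log2 1.44, SE 0.30). Acaa1b was at 167, 314 and 144 CPM and at 456, 1419 and 740 CPM (log2 2.09, SE 0.49). Both were called in edgeR, with adjusted p of 0.0232 and 0.0282, and neither had overlapping groups. Acaa1b exceeded Acaa1a per kilobase 3.43 to 4.23 times in control livers and 4.41, 8.15 and 4.94 times in No-Trp livers.

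Of the transporters, Abcd3 carries bile acid precursors and long-chain acyl-CoAs into the peroxisome. It was at 113, 272 and 140 CPM in control livers and at 584, 1065 and 586 CPM in No-Trp livers, without overlap (log2 2.11, SE 0.41, edgeR adjusted p = 0.0211). Abcd2, which carries very-long-chain acyl-CoAs, was at 37.6, 49.4 and 48.4 CPM and at 70.6, 166 and 40.0 CPM. No-Trp mouse 108 lay among the controls, and the difference of 1.05 (SE 0.48) was not called (edgeR adjusted p = 0.146).

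Chain-shortened products leave through Crot, which makes carnitine esters of medium chains, and through the thioesterase Acot8. Crot was at 86.9, 202 and 106 CPM and at 269, 447 and 335 CPM, and rose (log2 1.43, SE 0.36, edgeR adjusted p = 0.0310). Acot8, which shares exonic bases with Snx21, was at 22.8 to 27.6 CPM and at 31.4 to 53.9 CPM. Its groups did not overlap, but at log2 0.73 (SE 0.23, edgeR adjusted p = 0.0555) it missed both thresholds.

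Pex11a (chromosome 7, 79735957 to 79743131) is not an enzyme but a membrane protein that promotes the division of peroxisomes. It was at 6.85, 21.2 and 9.23 CPM in control livers and at 69.2, 106 and 98.2 CPM in No-Trp livers, a rise of 7.46-fold without overlap (log2 2.90, SE 0.44, edgeR adjusted p = 0.0163). It was called in 5 of 6 fits with a mouse left out.

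**Figure D2:**
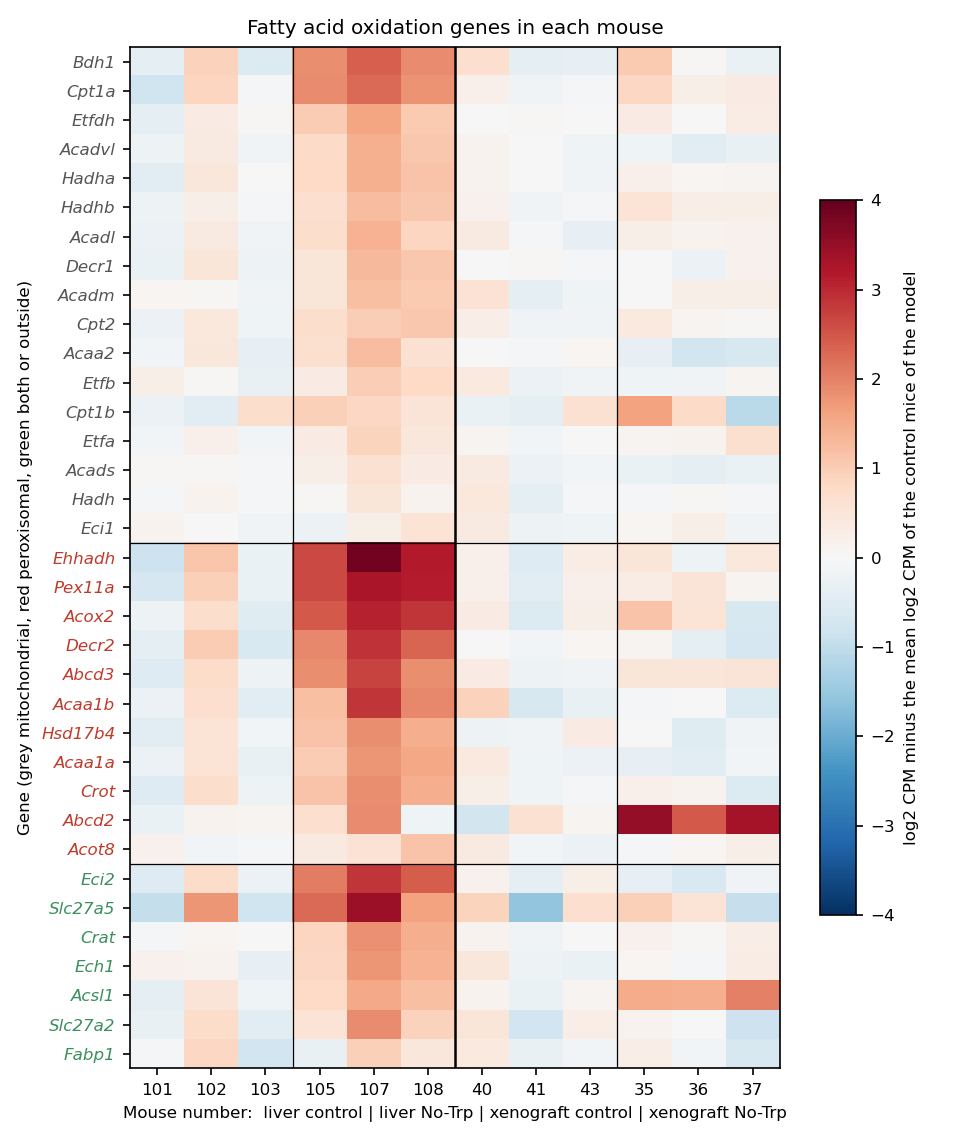
Heat map of the 35 genes (rows, grouped by organelle) in each of the 12 mice (columns, by mouse number), as log2 CPM minus the mean log2 CPM of the control mice of the same model. The No-Trp livers 105, 107 and 108 are red in nearly all rows and most in the peroxisomal block, where mouse 107 reaches 3.86 for Ehhadh, and control liver 102 is redder than the other controls.

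Of the mitochondrial genes, the largest differences stood at the entry and at the exit of the pathway. Cpt1a (chromosome 19, 3322334 to 3385733) encodes the liver form of carnitine palmitoyltransferase 1, the controlled step of entry into mitochondria. It was at 147, 461 and 242 CPM in control livers and at 932, 1219 and 886 CPM in No-Trp livers, without overlap (3.62-fold, log2 1.86, SE 0.42, edgeR adjusted p = 0.0261). Cpt1b, the muscle form, was near the limit of detection at 14 to 44 reads per liver (0.789 to 2.12 CPM), with overlapping groups and log2 0.69 (SE 0.42, edgeR adjusted p = 0.253). Bdh1 (chromosome 16, 31422280 to 31458901), the enzyme that reduces acetoacetate to the ketone body β-hydroxybutyrate, was at 92.8, 225 and 82.2 CPM and at 431, 630 and 442 CPM. It rose 3.81-fold without overlap (log2 1.93, SE 0.42, edgeR adjusted p = 0.0244).

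The steps in between moved less. Among acyl-CoA dehydrogenases, the very-long-chain enzyme Acadvl was at 268, 389 and 276 CPM and at 517, 826 and 654 CPM (log2 1.12, SE 0.26, edgeR adjusted p = 0.0276), and it shares exonic bases with Dvl2. The log2 difference was 1.02 for long chains (Acadl, called), 0.96 for medium chains (Acadm, edgeR adjusted p = 0.0328, under the fold threshold) and 0.43 for short chains (Acads, edgeR adjusted p = 0.0889), which is also the order of chain length. The differences between these genes were not tested, and the first 3 lie within their standard errors of 0.25 to 0.26. Acads was at 143 to 155 CPM in control livers and 179 to 232 CPM in No-Trp livers.

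Hadha and Hadhb encode the subunits of the trifunctional protein, which carries out the remaining steps on long chains, and lie back to back on chromosome 5 (30118304 to 30155162 and 30155248 to 30184593). Hadha was at 273, 513 and 375 CPM and at 649, 1004 and 822 CPM, and Hadhb at 226, 303 and 250 CPM and at 410, 612 and 540 CPM. Both rose by about the same amount (log2 1.11, SE 0.30, and 1.02, SE 0.23, edgeR adjusted p = 0.0366 and 0.0253). Hadh, the dehydrogenase for short chains, had 452 to 530 CPM and 498 to 673 CPM, with overlap and log2 0.25 (SE 0.21, edgeR adjusted p = 0.391). The thiolase Acaa2 was at 450, 666 and 393 CPM and at 765, 1141 and 753 CPM, without overlap but not called (log2 0.84, SE 0.29, edgeR adjusted p = 0.0717).

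Among the enzymes for unsaturated chains, the isomerase Eci1 had the smallest difference of all members (log2 0.24, SE 0.22, edgeR adjusted p = 0.454), with No-Trp mouse 105 below every control at 152 CPM against 161 to 197 CPM. The reductase Decr1 was at 109, 184 and 115 CPM and at 184, 327 and 280 CPM (log2 0.98, SE 0.29, edgeR adjusted p = 0.0473, under the fold threshold). Of the electron carriers, Etfdh, which passes electrons to ubiquinone, was at 126, 205 and 167 CPM and at 328, 481 and 336 CPM and rose (log2 1.22, SE 0.25, edgeR adjusted p = 0.0232). The electron transfer flavoprotein subunits Etfa and Etfb had log2 0.59 and 0.73 and were not called (edgeR adjusted p = 0.0897 and 0.0612). Cpt2, the inner-membrane carnitine transferase, had log2 0.92 (SE 0.22, edgeR adjusted p = 0.0294).

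Of the genes acting in both organelles or outside them, Eci2 (chromosome 13, 34977748 to 35027096), an isomerase found in peroxisomes and mitochondria, was at 59.8, 144 and 73.1 CPM and at 356, 617 and 459 CPM. It rose 5.25-fold without overlap (log2 2.39, SE 0.39, edgeR adjusted p = 0.0171), while Eci1, the mitochondrial isomerase of the same reaction, did not pass the test. The dienoyl-CoA isomerase Ech1 was at 135, 131 and 95.5 CPM and at 212, 407 and 310 CPM (log2 1.38, SE 0.28, edgeR adjusted p = 0.0216). The carnitine acetyltransferase Crat was at 55.5, 62.4 and 59.4 CPM and at 106, 211 and 160 CPM (log2 1.45, SE 0.25, edgeR adjusted p = 0.0187). Both rose without overlap, and Crat shares exonic bases with Dolpp1.

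Of the proteins for uptake and activation, Acsl1, the main long-chain acyl-CoA synthetase of liver, was at 499, 917 and 573 CPM and at 1114, 1836 and 1476 CPM and rose (log2 1.17, SE 0.33, edgeR adjusted p = 0.0397). The very-long-chain synthetase Slc27a2 was at 340, 703 and 314 CPM and at 618, 1581 and 795 CPM, where control mouse 102 exceeded No-Trp mouse 105 (log2 1.16, SE 0.46, edgeR adjusted p = 0.0999). Slc27a5, which activates bile acids, had a larger difference with a larger error (log2 2.08, SE 0.85, edgeR adjusted p = 0.110), since control mouse 102 held 224 CPM, above No-Trp mouse 108 at 201 CPM, and the other controls 34.3 and 38.1 CPM. Fabp1, the cytosolic fatty acid binding protein of liver, was at 459, 850 and 286 CPM and at 392, 941 and 655 CPM, with overlapping groups (log2 0.34, SE 0.46, edgeR adjusted p = 0.609).

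Peroxisomal and mitochondrial genes were then set against each other within each mouse. Relative to the control livers, the median gene of the peroxisomal group stood at log2 1.22, 2.71 and 1.85 in No-Trp mice 105, 107 and 108 and at −0.40, 0.70 and −0.26 in control mice 101, 102 and 103. The mitochondrial medians were 0.67, 1.22 and 1.04 and −0.19, 0.33 and −0.13. The peroxisomal median exceeded the mitochondrial one by 0.55, 1.49 and 0.81 in the No-Trp livers and by −0.20, 0.37 and −0.13 in the control livers, so the groups did not overlap in this contrast, with control mouse 102 nearest to the No-Trp mice. The same contrast in the xenografts was 0.00, −0.03 and 0.20 on the control diet and 0.07, 0.01 and −0.22 on the No-Trp diet, where the groups overlapped. No p is given for these medians, since their genes share mice.

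**Figure D3:**
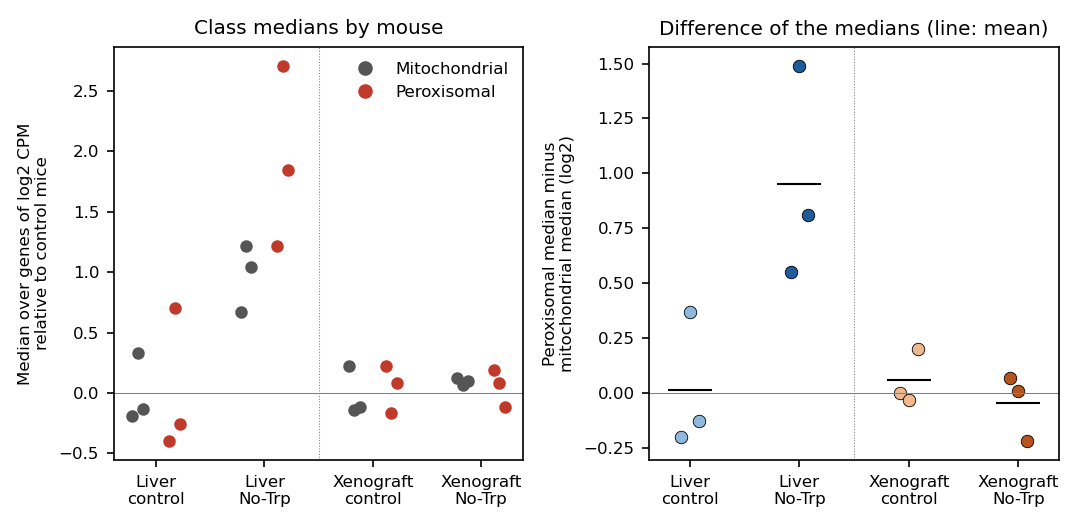
Left, the median over 17 mitochondrial and 11 peroxisomal genes of log2 CPM relative to the control mice of the same model, 1 point per mouse. Right, the peroxisomal minus the mitochondrial median of each mouse, with the mean as a line. The No-Trp livers lie at 0.55 to 1.49, above the control livers at −0.20 to 0.37, and the xenografts of both diets lie between −0.22 and 0.20.

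As a share of all reads on genes, the mitochondrial genes took 0.342 to 0.503% in control livers and 0.596 to 0.694% in No-Trp livers. The peroxisomal genes took 0.0744 to 0.160% and 0.270 to 0.420%, so they remained the smaller group in reads. Per kilobase of exon, the highest levels in control livers were those of Fabp1 (962 ± 522 CPM per kb, SD, n = 3), Acaa2 (332 ± 94.9), Etfb (209 ± 37.6) and Etfa (188 ± 22.8). In No-Trp livers Fabp1 (1199 ± 496) and Acaa2 (585 ± 145) were again first, and Acaa1b, at 444 ± 252 CPM per kb, came next, from 106 on the control diet. Its spread covers the neighbours Etfb (341 ± 75.4) and Etfa (279 ± 58.8). The lowest in each liver group was Cpt1b, at 0.342 ± 0.156 and 0.551 ± 0.0842 CPM per kb.

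Other genes of these pathways, taken from lists chosen with results of these data known, were counted in the same livers. The lists go by pathway, so not every listed product sits in the organelle named. Over all genes tested in these livers, 9.28% were called higher and 7.27% lower, the shares to set beside the list counts below. Of 14 further peroxisomal oxidation genes tested, 7 were called higher and none lower (median log2 1.27, 1 lower at an unadjusted p under 0.05, none by DESeq2). They include Hacl1, which cleaves α-oxidized chains (log2 2.43, SE 0.47, edgeR adjusted p = 0.0210), and Abcd4 had the lowest value (−0.70, edgeR adjusted p = 0.0559). Of 15 further genes listed with mitochondrial oxidation, 5 were called higher and 1 lower (median 0.67). Both extremes encode proteins outside mitochondria. They were the carnitine transporter Slc22a5 (2.38, SE 0.24, edgeR adjusted p = 0.0106) and Cpt1c, a brain-type carnitine palmitoyltransferase (−3.03, SE 0.72, edgeR adjusted p = 0.0290). The carrier Slc25a20, which brings acylcarnitines into the matrix, was at 41.8, 81.7 and 51.0 CPM and at 157, 254 and 217 CPM and rose.

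Of 7 ketone body genes, 2 were called higher and 1 lower (median −0.61). The monocarboxylate transporter Slc16a1 fell (log2 −1.06, SE 0.17, edgeR adjusted p = 0.0171), and Bdh2 had the lowest value (−1.25, edgeR adjusted p = 0.114). Of 14 further uptake and activation genes, 2 were called higher and 1 lower (median 0.64), where 9.28% and 7.27% of all genes tested were called. The synthetase Acsl4 rose (2.14, SE 0.22, edgeR adjusted p = 0.0108), the binding protein Fabp5 fell (−1.41, SE 0.42, edgeR adjusted p = 0.0472), and Acsm1 had the highest value without a call (2.20, SE 0.90, edgeR adjusted p = 0.111).

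Of 20 further known PPARα targets tested, 15 were called higher (median 2.16), and none was called lower by edgeR (1 at an unadjusted p under 0.05 and 1 by DESeq2). The ω-hydroxylase Cyp4a14 had the highest value (6.95, SE 0.92, edgeR adjusted p = 0.0139) and the glycerol channel Aqp7 the lowest (−1.60, edgeR adjusted p = 0.0560). Ppara itself was at 57.7, 137 and 75.6 CPM in control livers and at 409, 590 and 272 CPM in No-Trp livers (log2 2.25, SE 0.41, edgeR adjusted p = 0.0196). Its coactivator Ppargc1a was at 9.22, 19.9 and 21.2 CPM and at 46.0, 62.5 and 35.5 CPM (1.54, SE 0.36, edgeR adjusted p = 0.0280). Both rose without overlap, as 2 of the 5 called among 20 regulators (median 0.85), which ranged from Sirt1 (−0.48, edgeR adjusted p = 0.108) to Lpin1 (2.90, SE 0.99, edgeR adjusted p = 0.0709).

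Transcripts for other parts of the organelles were counted in 2 lists, and the number or mass of organelles was not measured. Of 16 genes of peroxisome biogenesis, catalase included, 5 were called higher (median 0.83), with Pex16 highest (1.63, SE 0.21, edgeR adjusted p = 0.0136) and Pex10 lowest (−0.73, edgeR adjusted p = 0.0740). Of 20 genes of the mitochondrial matrix and citric acid cycle, none was called by edgeR or DESeq2 in either direction (3 higher and 3 lower at an unadjusted p under 0.05), and their median was 0.08. They ranged from Tfam (−0.62, edgeR adjusted p = 0.0361) to Sdhb (0.62, edgeR adjusted p = 0.0605).

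Markers of cell state moved with these differences. Of 10 hepatocyte markers 5 were called higher on the No-Trp diet (median log2 1.73), and their sum ran from 14990 to 52305 CPM in control livers against 62741 to 155523 CPM in No-Trp livers, with none at 0. Control mouse 102 and No-Trp mouse 107 were highest in their groups, as they were for most of the 35 genes. Of 8 proliferation markers 7 were called lower (median −2.17, 1254 to 1425 CPM and 86.0 to 393 CPM). All 5 erythroid markers tested were called lower (median −4.81, 57.1 to 605 CPM and 8.12 to 23.5 CPM), with Hba-a1 and Hbb-bt at 0 in both groups. Their part in the differences of the oxidation genes was not tested.

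In the HCC53N xenografts, 2 of the 35 genes were called higher on the No-Trp diet (5.71%, against 0.245% of the 14704 genes tested) and none lower (0.116% of all genes, 1 member at an unadjusted p under 0.05, and none by DESeq2). They were the peroxisomal transporter Abcd2 and the synthetase Acsl1. Every No-Trp xenograft lay above every control xenograft in 6 of the 35 members, against 1581 of the 14704 genes (10.8%). Every one lay below in 3 members (Acadvl, Acads and Acaa2), against 1735 of the 14704 genes. The median log2 difference was 0.11 over the mitochondrial genes, 0.05 over the peroxisomal genes and 0.05 over the others. Of the 35, 21 had a positive and 14 a negative value.

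Acsl1 (chromosome 8, 46471037 to 46536051) was at 22.8, 17.2 and 21.9 CPM in control xenografts and at 57.6, 56.3 and 83.4 CPM in No-Trp xenografts, without overlap (3.17-fold, log2 1.67, SE 0.21, edgeR adjusted p = 0.0247). Abcd2 (chromosome 15, 91145871 to 91191799) was at 0.785, 1.99 and 1.40 CPM, from 16 to 50 reads, and at 14.8, 7.04 and 12.9 CPM, from 211 to 408 reads (8.17-fold, log2 3.03, SE 0.44, edgeR adjusted p = 0.0436). Neither was called when mouse 41, mouse 43 or mouse 37 was left out. The resubmitted xenografts 41 and 43 were both controls. With resubmission as a covariate the diet difference therefore rests on control mouse 40 alone, and that fit cannot test these calls. Without No-Trp mouse 35 Acsl1 alone was called. The log2 differences stayed between 1.46 and 1.77 for Acsl1 and between 2.74 and 3.40 for Abcd2 with each mouse left out. Over all genes, 36 were called higher with all mice and 7 to 35 with each mouse left out.

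Adipocyte markers differed in the same xenografts. All 7 adipocyte markers tested had an unadjusted p under 0.05 in the same direction and 4 were called higher (median log2 4.80), with summed levels of 14.4, 69.9 and 15.9 CPM on the control diet and 532, 411 and 867 CPM on the No-Trp diet. Ucp1 was at 0 in the control xenografts. Muscle markers summed to 3.53, 3.75 and 24.4 CPM and to 52.9, 37.4 and 66.5 CPM, with 1 of 8 called higher. Among the No-Trp xenografts, mouse 37 was highest for the adipocyte sum and for Acsl1 and mouse 36 lowest for the sum and both genes, while Abcd2 was highest in mouse 35. Among the control xenografts, mouse 41 had the highest adipocyte sum and the highest Abcd2 but the lowest Acsl1. The part of fat RNA in these calls was not tested.

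**Figure D4:**
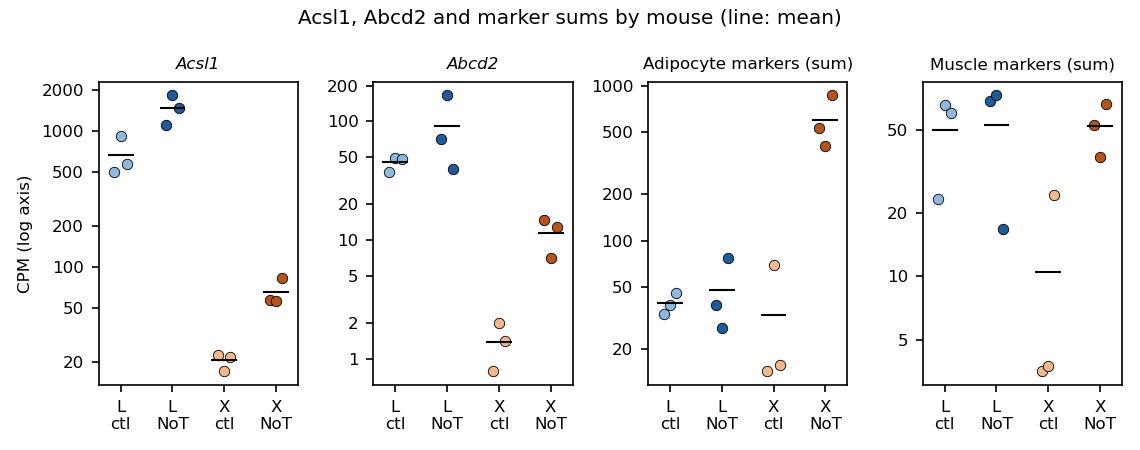
CPM of Acsl1 and Abcd2 and the summed CPM of 8 adipocyte and 8 muscle markers in each mouse of the 4 groups (L liver, X xenograft, ctl control, NoT No-Trp), on log axes, with means as lines. In the xenografts all 4 quantities are higher in every No-Trp mouse than in every control mouse, while the adipocyte sum of the livers stays between 27.2 and 77.9 CPM.

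The remaining xenograft values were small. Cpt1a was at 91.5, 72.1 and 73.8 CPM and at 139, 93.0 and 99.1 CPM, without overlap (log2 0.47, SE 0.19, edgeR adjusted p = 0.263). Hadhb, at 42.6 to 52.9 CPM and 55.3 to 68.1 CPM, and Abcd3, at 46.5 to 67.2 CPM and 75.3 to 75.7 CPM, did not overlap either (log2 0.34 and 0.47, edgeR adjusted p = 0.309 and 0.222). In the other direction, Acaa2 was at 70.5, 67.6 and 75.5 CPM and at 57.1, 42.9 and 45.4 CPM (−0.57, SE 0.16, edgeR adjusted p = 0.145). Cpt1b was at 4 to 30 reads per xenograft (log2 0.74, SE 0.71), too few to show a difference of this size.

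Of the 8 genes with the largest liver differences, Abcd3 alone had groups that did not overlap in the xenografts. Ehhadh was at 3.63, 2.19 and 3.90 CPM and at 4.43, 2.70 and 4.20 CPM (log2 0.21, SE 0.38, edgeR adjusted p = 0.818). Acox2 was at 3.97, 2.19 and 3.72 CPM and at 6.97, 4.64 and 2.04 CPM (0.45, SE 0.48, edgeR adjusted p = 0.672), and Acaa1b at 16.1, 5.47 and 6.82 CPM and at 7.94, 8.34 and 5.77 CPM (−0.37, SE 0.41, edgeR adjusted p = 0.686). Slc27a5, with 11 to 69 reads, had log2 0.05 (SE 0.69). Ppara was at 0.718 to 2.80 CPM in control and 1.06 to 3.19 CPM in No-Trp xenografts (−0.00, SE 0.61, edgeR adjusted p = 0.998), and Ppargc1a at 3.91 to 8.35 CPM and 2.25 to 3.90 CPM (−0.82, SE 0.40, edgeR adjusted p = 0.339).

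Of the other lists, 2 had 1 gene called higher in the xenografts, against 0.245% of all genes tested. Among genes listed with mitochondrial oxidation it was Acacb (log2 4.11, SE 0.52, edgeR adjusted p = 0.0253). Acacb is an acetyl-CoA carboxylase and not itself an enzyme of oxidation. Among PPARα targets it was Cidec, a lipid droplet protein that is also one of the adipocyte markers (4.86, SE 0.46, edgeR adjusted p = 0.0137). The fatty acid translocase Cd36 had the highest value of the uptake genes without a call (2.82, SE 0.49, edgeR adjusted p = 0.0669). The medians of the lists were 0.21 for mitochondrial oxidation, −0.02 for peroxisomal oxidation, −0.06 for peroxisome biogenesis and −0.00 for matrix genes.

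Whether the diet acted differently on these genes in the 2 models was tested with the interaction of diet and model in a fit over the 12 libraries. The response was called lower in the xenografts than in the livers for 14 of the 35 genes (40.0%, against 6.01% of 15472 genes tested). For none was it called higher in edgeR. Higher at an unadjusted p under 0.05 was 1, the peroxisomal transporter Abcd2 (2.00, SE 0.69, edgeR adjusted p = 0.0692). DESeq2 called 1 peroxisomal gene higher. The 14 were 9 of the 11 peroxisomal genes, 2 of the 17 mitochondrial genes and 3 of the 7 others. The largest were Ehhadh, with a difference of the log2 responses of −2.85 (SE 0.68, edgeR adjusted p = 0.0212), Eci2 (−2.75, SE 0.45, edgeR adjusted p = 0.00692), Pex11a (−2.58, SE 0.53, edgeR adjusted p = 0.0118), Decr2 (−2.51, SE 0.56, edgeR adjusted p = 0.0167) and Acaa1b (−2.43, SE 0.68, edgeR adjusted p = 0.0361). For Acsl1, called in both models, the difference was 0.52 (SE 0.38, edgeR adjusted p = 0.369).

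Among mitochondrial genes only Acadvl (−1.40, SE 0.28, edgeR adjusted p = 0.0117) and Acaa2 (−1.37, SE 0.32, edgeR adjusted p = 0.0188) were called, and both had lower values on the No-Trp diet in every xenograft, at 78.0, 65.5 and 70.8 CPM for Acadvl against 96.4, 89.2 and 78.4 CPM. Cpt1a (−1.36, SE 0.47, edgeR adjusted p = 0.0706) and Bdh1 (−1.60, SE 0.64, edgeR adjusted p = 0.107) had values as large but larger errors. The number of mitochondrial calls was 7 under DESeq2, 7 with the resubmission covariate and 8 without control liver 102, each beside 9 peroxisomal genes called lower. With library totals it was 0 beside 7, and with the other mice left out in turn it was 1 to 5 beside 4 to 9. The median was −0.84 over mitochondrial and −1.73 over peroxisomal genes, against 0.03 over all genes. Calls for Acadvl, Acaa1a, Hsd17b4, Decr2, Pex11a, Eci2 and Crat held in all 12 fits with a mouse left out. The number of calls among the 35 ran from 7 without control liver 103 to 22 without control liver 102. Over all genes, 449 and 1386 were called lower in these 2 fits, against 930 with all mice. Model, host, sex and site of growth differ together between the models and cannot be told apart.

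None of the peroxisomal and dual genes with a called interaction was called between diets in the xenografts by edgeR or DESeq2, and at an unadjusted p under 0.05 there was 1, Abcd3, at 67.2, 46.5 and 48.6 CPM and at 75.3, 75.4 and 75.7 CPM without overlap (unadjusted p = 0.0223, edgeR adjusted p = 0.222). Hsd17b4 was at 58.3, 61.5 and 84.9 CPM and at 67.1, 48.5 and 61.5 CPM, Acaa1a at 85.8, 58.1 and 56.1 CPM and at 52.2, 48.8 and 60.1 CPM, and Crot at 40.6, 31.1 and 33.5 CPM and at 39.8, 38.0 and 23.7 CPM. Decr2 was at 13.1, 11.9 and 13.6 CPM and at 14.0, 9.87 and 8.15 CPM, and Pex11a at 2.99, 1.95 and 2.99 CPM and at 3.16, 3.74 and 2.80 CPM. Eci2 was at 91.2, 62.2 and 96.5 CPM and at 64.9, 53.2 and 74.4 CPM, Ech1 at 93.2, 58.7 and 56.0 CPM and at 71.0, 64.8 and 82.6 CPM, and Crat at 55.7, 46.2 and 51.2 CPM and at 57.6, 52.8 and 60.7 CPM. The diet groups overlapped in these 8 genes, as in Ehhadh, Acox2 and Acaa1b above.

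**Figure D5:**
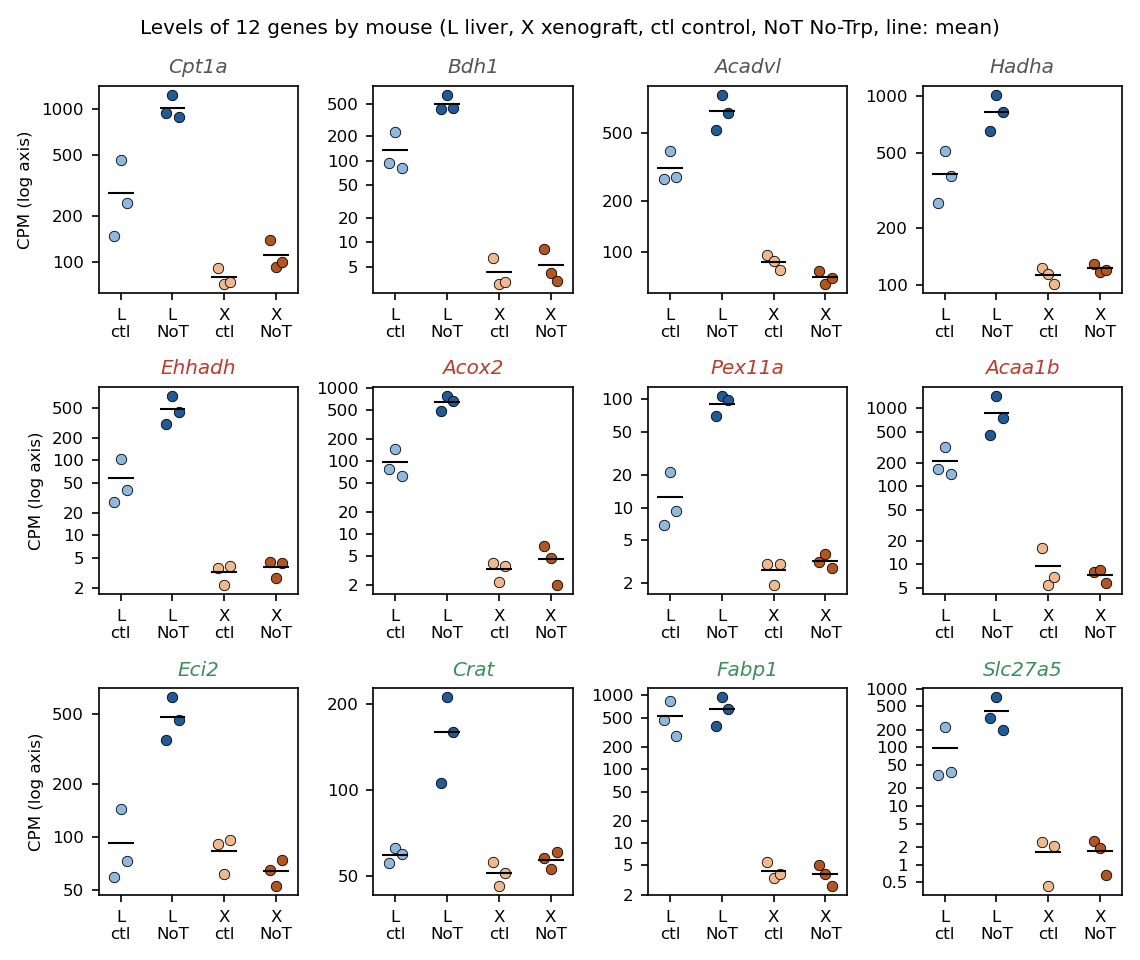
CPM of 4 mitochondrial (grey titles), 4 peroxisomal (red) and 4 other genes (green) in each mouse of the 4 groups (L liver, X xenograft, ctl control, NoT No-Trp), on log axes that do not start at 0, with means as lines. The No-Trp livers are highest for 10 of the 12 genes without overlap, Fabp1 and Slc27a5 overlap between liver diets, and Eci2 and Crat reach similar levels in control livers and xenografts.

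Between the models on the control diet, 30 of the 35 genes were called lower in the xenografts (85.7%, against 20.2% of all genes tested) and none higher by edgeR or DESeq2, or at an unadjusted p under 0.05. All 17 mitochondrial genes were called (median log2 −2.17), from Acads (−1.24) to Bdh1 (−4.96, SE 0.52). Of the peroxisomal genes 9 were called (median −1.91), and Acaa1a (−0.84, edgeR adjusted p = 0.0151) and Acot8 (−0.71, edgeR adjusted p = 0.0185) were under the fold threshold. The largest differences were those of Fabp1 (−6.97, SE 0.52), Slc27a2 (−6.43) and Slc27a5 (−5.94). Eci2 (−0.15, SE 0.32, edgeR adjusted p = 0.708) and Crat (−0.21, SE 0.20, edgeR adjusted p = 0.392) did not differ beyond their errors and their groups overlapped, with Crat at 55.5 to 62.4 CPM in control livers and 46.2 to 55.7 CPM in control xenografts.

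On the No-Trp diet all 35 genes were called lower in the xenografts (19.1% of all genes tested). The medians were −3.00 for mitochondrial, −3.37 for peroxisomal and −4.49 for the other genes, and the values ran from −1.37 for Acot8 to −7.90 for Slc27a5. The 2 model comparisons share no mice with each other, but both come from the fit over the 12 libraries. Each shares mice with both diet comparisons above and with the interaction. Hepatocyte markers also differed between the models, with all 10 called lower on the control diet (median −5.46), and their part in these differences was not tested.

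The balance between close relatives differed between the models as well. Acaa1b stood at 3.43 to 8.15 times the level of Acaa1a per kilobase in the livers and at 0.212 to 0.422 times in the xenografts. Ehhadh stood at 0.0408 to 0.0780 of the level of Hsd17b4 in the xenografts, below the livers of either diet. Cpt1a exceeded Cpt1b per kilobase by 56.2 to 282 times in every library, and these ratios rest on few Cpt1b reads. Abcd3 exceeded Abcd2 by 2.61 to 13.2 times in livers, by 77.3, 21.0 and 31.3 times in control xenografts and by 4.59, 9.66 and 5.29 times in No-Trp xenografts. Per kilobase the order within the xenografts began with Acaa2 (47.0 ± 2.64, SD, n = 3), Etfb (45.3 ± 11.1) and Etfa (43.2 ± 3.07) on the control diet, and ended with Cpt1b (0.111 ± 0.0449).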

How the data were processed

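The deposited values are whole read counts per gene symbol, which the authors made from trimmed reads of polyadenylated RNA aligned to mm10, without normalization. The submitters' processing notes name Trim Galore, STAR 2.7.2b and HTSeq, and the strand setting is not given in the sources used here, nor is the treatment of overlapping genes, so overlapping genes and close copies hold uncertain counts. Reads that this counting left out (24.7 to 39.4% of a library) entered no library size. Chi-square per degree of freedom between libraries of a group was 34.6 to 274, far above sampling noise, so none was counted as a copy. Depth was 14660963 to 26085349 reads on genes, and the spread between mice that edgeR estimated (31.6% in livers, 28.7% in xenografts) exceeds the counting error of all but the lowest genes. The labels name each mouse, and the 3 mice of a group are separate animals.

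For the diets, each model was fitted alone in edgeR 4.0.16 under R 4.3.3 (TMM, filterByExpr, robust glmQLFit, glmQLFTest, two-sided), and models and the interaction in a fit over 12 libraries, with Benjamini-Hochberg adjustment over all genes tested. Calls needed both 0.05 or less for that p and 1 or more for the size of the log2 difference. A standard error is the log2 difference divided by the square root of F. Alternatives were DESeq2 1.42.0, RLE factors, library totals, other filters, resubmission of the data (livers 101 and 108, xenografts 41 and 43) as a covariate, adjusted p alone, a joint fit of the 12 libraries, Rn45s left out, other organelle assignments and leaving out each library. The tests were tried on simulated counts. All 35 members may be named. Values by mouse were given for the 4 mitochondrial and 4 peroxisomal genes with the largest difference in each diet comparison, the extremes of the third group, genes with a called interaction and the close relatives, and most others are given too. Of the other lists, the extremes and called examples are named, and some genes of these lists are not reported by name here. The members and lists were chosen with earlier results of these data known. Tf and Adgre1 were matched to Trf and Emr1. Gene coordinates come from GENCODE M21 (GRCm38, also called mm10), and promoter sequences are from RefSeq. Protein sequences were not used here.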

Additional observations from a re-analysis of the deposited data

Results flagged for a closer look

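The diet response of 15 genes differed between the models at an edgeR adjusted p of at most 0.05 for the interaction, each lower in the xenografts than in the livers. As the xenograft minus the liver log2 response, the peroxisomal genes had −2.85 (Ehhadh), −2.58 (Pex11a), −2.51 (Decr2), −2.43 (Acaa1b), −2.26 (Acox2), −1.73 (Acaa1a), −1.67 (Hsd17b4), −1.61 (Abcd3) and −1.46 (Crot). The mitochondrial genes had −1.40 (Acadvl), −1.37 (Acaa2) and −0.99 (Etfdh, under the fold threshold), and the others −2.75 (Eci2), −1.29 (Ech1) and −1.27 (Crat). With each mouse left out in turn, Ehhadh ran from −3.59 to −2.44 and Eci2 from −3.21 to −2.51. No group has more than 3 mice, so single mice were not tested as outliers.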

How the results depend on the processing

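In the livers, the number of members called higher ran from 0 to 25 with each mouse left out, against 20 with all mice. Over all genes it ran from 7 to 1959, against 1311. With library totals the mitochondrial median was 0.65, and all genes had a median of −0.30, the members 0.81. The members called were then 14, and Hadh and Eci1, called under neither scaling, turned to −0.06 and −0.05. In the xenografts, 2 were called, 1 with at least 10 counts in every library, 1 in one fit over all libraries and 0 to 2 with each mouse left out. The mitochondrial median there was −0.19 with resubmission as a covariate, a fit in which control mouse 40 alone stands for the control diet. The peroxisomal median ran from −0.03 to 0.25 with each mouse left out, reaching its highest value without control mouse 40. For the interaction, 14 were called, 9 with library totals (8 lower and 1 higher, with a median of all genes of 0.41) and 7 to 22 with each mouse left out. Over all genes, the lower calls ran from 449 to 1386 with each mouse left out, against 930 with all mice. The causes were not tested. DESeq2 called 22 in the livers, 2 in the xenografts and 20 for the interaction, and no called gene turned its direction under any alternative. No paired analysis was possible because the groups share no mouse numbers. Genes at few reads (Cpt1b, Slc27a5 and Abcd2 in xenografts) are limited by depth. Among genes with a called interaction, Ehhadh, Pex11a and Acox2 also had few xenograft reads (55 to 122, 49 to 112 and 48 to 192). The standard errors of their diet differences there were 0.38, 0.36 and 0.48.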
